A study of Mus musculus with 23 samples.

Results

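The mitochondrial protein import machinery was described in mRNA bound to tagged ribosomes of mouse striatal neurons. Its members were chosen by name: every probe whose gene symbol begins with TOMM or TIMM followed by a digit, with SAMM50, MTX1, MTX2, PMPCA, PMPCB, GRPEL1 and GRPEL2. The rule found 42 probes of 26 genes, of 45281 probes and 30854 gene symbols on the array. Each value is the mean brightness of the beads of 1 probe on an Illumina Mouse WG-6 v2 BeadChip, quantile normalized over the arrays and given on the log2 scale, so that a difference of 1 is a doubling. Of the 42 probes, 40 passed the filter on low signal and at least 1 probe passed for each of the 26 genes. The probes left out were a second TOMM22 probe and a TIMM9 probe for an isoform, which was detected on none of the 23 arrays.

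Most mitochondrial proteins are encoded in the nucleus, made on cytosolic ribosomes and imported. The TOM complex of the outer membrane takes them in through its receptors and channel, the SAM complex inserts beta-barrel proteins, and small TIM chaperones carry hydrophobic precursors across the intermembrane space. The TIM22 and TIM23 translocases insert or pass proteins at the inner membrane, a motor on the matrix side pulls them in, and a processing peptidase removes the targeting peptide.

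Of the members, TOMM70A is the gene the results turn on, and the 250 bases before its annotated start are shown as its promoter sequence, at chr16:57121464-57121713 on the plus strand of GRCm38.p6, from RefSeq. Capitals mark the letters CCGGAAG, the core recognised by ETS family factors, or their reverse complement.
TOMM70A: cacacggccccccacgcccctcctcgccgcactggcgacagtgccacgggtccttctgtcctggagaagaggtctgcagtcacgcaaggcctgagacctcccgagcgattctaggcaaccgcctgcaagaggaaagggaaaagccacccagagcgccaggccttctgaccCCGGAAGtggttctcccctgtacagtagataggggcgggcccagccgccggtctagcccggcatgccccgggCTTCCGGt
The motif was found 2 times in this stretch, ending 73 bases and 1 base short of the start, and in 13 of 25 stretches (52%) of the 23 member genes that the RefSeq table matched, against 6.91% of 32851 stretches of the same length over all annotated genes. Neither the consensus site of nuclear respiratory factor 1 nor TGACGTCA, the cAMP response element, was found on either strand in a member's stretch, against 0.998% and 1.55% of all stretches. Both strands were searched, and a match describes letters and not binding. TOMM34 entered with more than 1 stretch, each with CCGGAAG, and TIMM22 with more than 1, none with it. The genes were not matched for expression, and the differences in share were not tested.

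The mice carried the ribosomal protein L10a fused to EGFP on a bacterial artificial chromosome under the DRD1A promoter (direct pathway medium spiny neurons, MSNs) or the DRD2 promoter (indirect pathway MSNs). They were of the strain C57BL/6J/Swiss-Webster and were 71 days old. All had a 6-OHDA lesion of the dopamine supply, made at 35 days of age. Chronic LDOPA mice had been given 6 mg/kg LDOPA together with 15 mg/kg benserazide, in 2 daily doses over 21 days. Acute LDOPA mice had been given saline instead, and every mouse received LDOPA on day 22, 40 min before tissue collection. There were 8 arrays of DRD1A chronic, 7 of DRD1A acute, 4 of DRD2 chronic and 4 of DRD2 acute LDOPA. The tag marks every cell in which the promoter is active, and the DRD2 promoter is also active in cholinergic interneurons.

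The arrays detected between 13114 and 17443 probes each, and the number of arrays in a group limits the precision. By group, detected probes ran from 13114 to 15212 in DRD2 acute and from 15473 to 16794 in DRD2 chronic, with no overlap. They ran from 14721 to 17443 in DRD1A acute and from 14070 to 17332 in DRD1A chronic. Arrays 1D and 3A of DRD2 chronic LDOPA (BeadChip number and position) correlated at 0.990, against at most 0.928 for the other pairs of arrays of 253 in all, differed far less than any other pair, and were averaged into 1 sample, which left 22 samples. The lowest signal of an array also varied by BeadChip, between 65.1 and 70.3 on BeadChip 1 and between 94.0 and 121.6 on the other BeadChips. The median signals overlapped. BeadChip 1 held 4 of the 7 DRD1A acute arrays and no DRD1A chronic array. It also held the DRD2 chronic arrays 1A and 1D and no DRD2 acute array. The treatment and line comparisons were therefore all unbalanced by BeadChip. The lines could be told apart by the gene DRD2 itself, with no overlap of arrays. For it, DRD1A minus DRD2 was -3.34 after chronic and -3.83 after acute LDOPA on the log2 scale (adjusted p = 6.04e-09 and 1.16e-10). After acute LDOPA, 2 of 5 direct and 3 of 5 indirect pathway markers were called, against 0.158% of all probes. After chronic LDOPA, 0 of 5 direct (lowest adjusted p = 0.0511) and 1 of 5 indirect pathway markers were called, against 0.0279%.

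TOMM70A, a TOM receptor that binds the cytosolic chaperones HSP70 and HSP90 and the carrier precursors they deliver, rose in EGFP-L10a expressing MSNs of the DRD1A line treated with chronic LDOPA. Its log2 signal on the 8 DRD1A chronic arrays was lowest at 10.22, had a median of 10.71 and was highest at 10.98, against 9.46, 9.77 and 10.10 on the 7 DRD1A acute arrays. Every DRD1A chronic array lay above every DRD1A acute array. The means were 10.67 ± 0.25 and 9.77 ± 0.26 (SD, n = 8 and 7), a log2 difference of 0.90 with a 95% interval of 0.62 to 1.18, or 1.87-fold (adjusted p = 0.0193). Before normalization the signal was 1236 to 2719 on the DRD1A chronic arrays and 621.1 to 928.1 on the DRD1A acute arrays, each the mean of 33 to 54 beads with a standard error of 4.85% to 9.97% of the signal.

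In DRD2 EGFP-L10a expressing MSNs, TOMM70A was at 10.33, 10.20, 10.22 and 10.18 on the chronic arrays, against 10.41, 10.16, 9.64 and 9.70 on the acute arrays. The chronic arrays lay close together, within the spread of the acute arrays at their upper end. The difference of 0.26 (95% interval -0.15 to 0.67) did not pass the test (adjusted p = 0.886). Between the lines, DRD1A minus DRD2 came to 0.43 (0.07 to 0.80) after chronic LDOPA and -0.20 (-0.54 to 0.13) after acute LDOPA, neither past the threshold (adjusted p = 0.689 and 0.756). The interaction of line and treatment, the DRD1A change less the DRD2 change, was 0.64 (0.14 to 1.13) with an adjusted p of 0.880, so a difference between the lines in the change was not shown. In RNA of many cells, fewer cells of a type and less RNA per cell cannot be told apart.

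**Figure D1:**
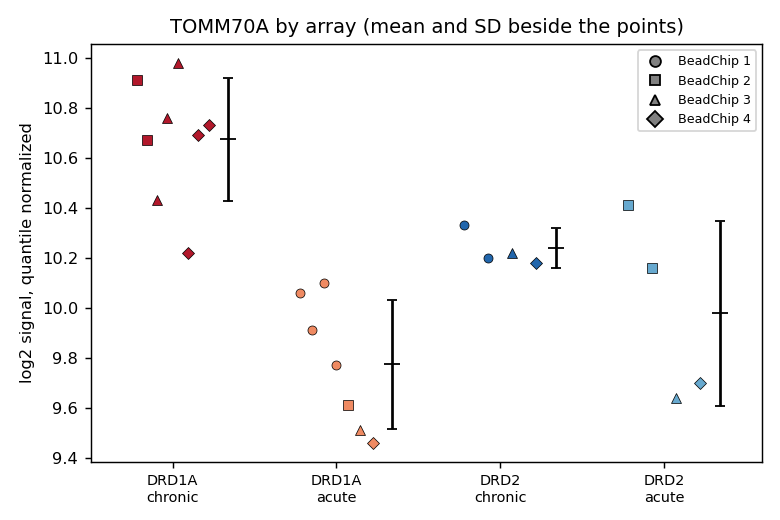
TOMM70A log2 signal (vertical axis, quantile normalized) on each array of the 4 groups of line and LDOPA treatment, with the marker shape giving the BeadChip and the bar beside each group its mean and SD (the near-identical arrays 1D and 3A counted once). All 8 DRD1A chronic arrays lie between 10.22 and 10.98, above the 7 DRD1A acute arrays at 9.46 to 10.10.

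The 4 DRD1A acute arrays on BeadChip 1 lay between 9.77 and 10.10, and the other 3 between 9.46 and 9.61. Within BeadChips 2, 3 and 4, which held both DRD1A groups, chronic minus acute was 1.18, 1.22 and 1.08, with 1 acute array on each. Without BeadChip 1 the difference was 1.15 but no longer passed (adjusted p = 0.0705), with 3 acute arrays left. It was also lost without array 3D (0.89, adjusted p = 0.0531) or array 3E (0.86, adjusted p = 0.0549), and the direction was the same under each alternative run.

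No other member passed the test in a comparison of groups, but this depended on the scaling of the arrays: with median centering in place of quantile normalization, GRPEL1 (0.84, adjusted p = 0.0498) and TIMM9 (0.53, adjusted p = 0.0456) were also called in DRD1A, chronic against acute. In DRD1A, chronic against acute LDOPA, 1 of 40 member probes was called at an adjusted p under 0.05, against 0.0341% of the 32255 probes tested (11 probes, 7 higher and 4 lower). In DRD2, chronic against acute, 0 of 40 were called, against 0.0031% of all probes. Between DRD1A and DRD2, 0 of 40 were called after chronic LDOPA and 0 of 40 after acute LDOPA, against 0.0279% and 0.158% of all probes. The interaction called 0 of 40 members and 0% of all probes. The F test over the 4 groups called 1 of 40, TOMM70A (adjusted p = 0.0169), against 0.295% of all probes.

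At an unadjusted p under 0.05, the counts of member probes for chronic against acute LDOPA were 7 of 40 in DRD1A, against 7.8% of all probes, and 5 of 40 in DRD2, against 6.28%. There were 5 of 40 between the lines after chronic LDOPA, against 6.14%, and 5 of 40 after acute LDOPA, against 9.11%. The interaction gave 5 of 40, against 5.57%, and the F test 10 of 40, against 10%. The share among member probes was the larger each time, but the excess was not tested and the probes were not matched for brightness. The comparisons also share arrays. Among probes detected on all arrays of a group, it was not larger between the lines after acute LDOPA. There it was 3 of 26, against 1489 of 12262 probes, and it stayed larger in the other comparisons. The members' median log2 difference was 0.01 in DRD1A and 0.02 in DRD2 for chronic minus acute, and 0.04 after either treatment for DRD1A minus DRD2, with medians over all probes between -0.01 and 0.01. By these medians the import genes centred near no difference, with single genes on either side.

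**Figure D2:**
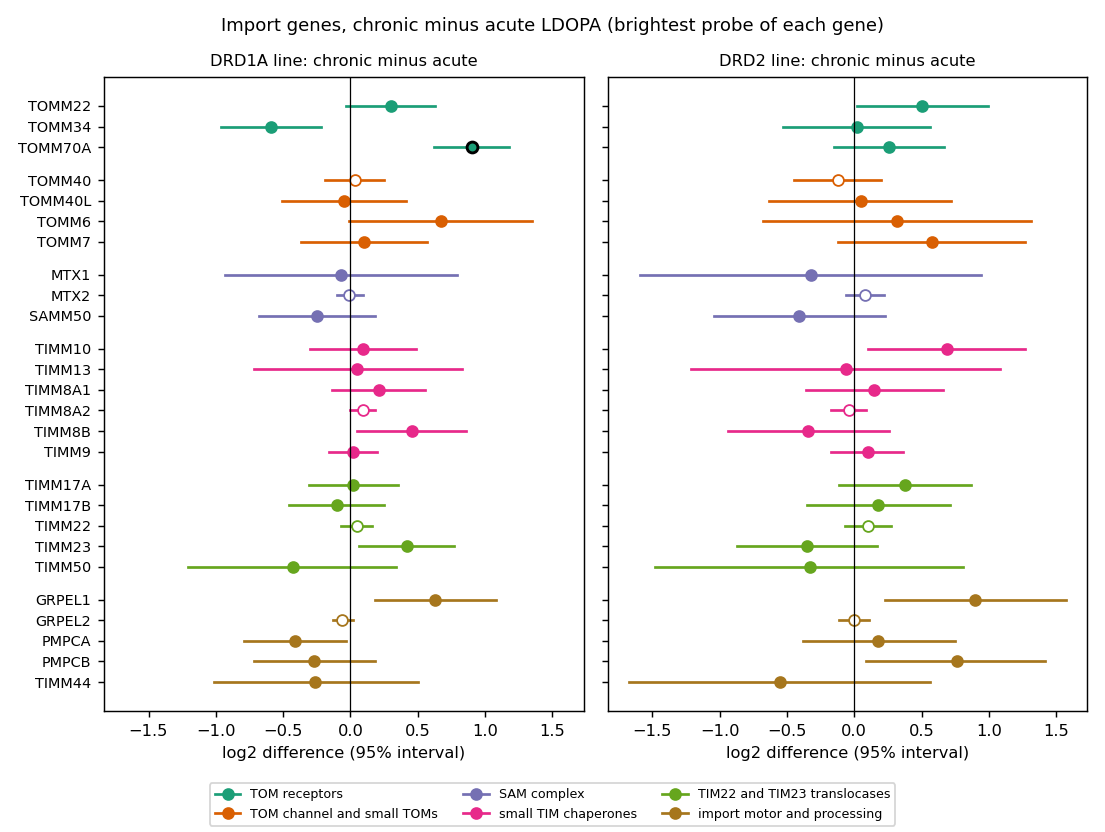
Log2 difference, chronic minus acute LDOPA, with its 95% interval (horizontal axis), for the brightest probe of each of the 26 import genes in the DRD1A line (left) and the DRD2 line (right), coloured by role; open circles mark genes detected on at most 8 of 23 arrays and the black outline a called gene. TOMM70A in DRD1A, at 0.90, is the only outlined point.

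The other TOM receptors were not called. TOMM34, a cytosolic co-chaperone that binds HSP70 and HSP90 and was first described as a translocase component, had a log2 signal of 7.77 at its lowest, 8.21 at the median and 8.83 at its highest on the DRD1A chronic arrays, against 8.29, 8.88 and 9.45 on the DRD1A acute arrays. Its groups overlapped, with 5 of 8 DRD1A chronic arrays below every acute array, and the difference of -0.59 (95% interval -0.96 to -0.22) was not called (adjusted p = 0.348). Its second, dimmer probe gave -0.24 in the same comparison. Within BeadChips 2, 3 and 4 the brighter probe gave -0.08, -0.98 and -0.59. DRD1A minus DRD2 after chronic LDOPA was -0.56 by the brighter TOMM34 probe (adjusted p = 0.712) and 0.02 by the dimmer one.

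TOMM22, the central receptor that joins the TOM receptors to the channel, was at 10.51, 9.84, 10.06 and 10.16 on the DRD2 chronic arrays, against 9.90, 9.76, 9.31 and 9.84 on the DRD2 acute arrays. With arrays 1D and 3A averaged the groups did not overlap, as was so for 6.9% of all probes. The difference was 0.50 (0.02 to 0.99), not called (adjusted p = 0.790). In DRD1A the means were 10.36 ± 0.33 after chronic and 10.06 ± 0.33 after acute LDOPA (SD, n = 8 and 7), a difference of 0.30 with overlapping arrays.

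Of the channel and the small TOM subunits, 0 of 4 genes passed in any comparison. TOMM40, which forms the channel, was near background, with its brighter probe detected on 7 of 23 arrays, and no fold difference is given for it. TOMM40L, a homologue of the channel protein, was detected on all arrays by both of its probes, and chronic minus acute was -0.05 and -0.14 in DRD1A and 0.05 and -0.18 in DRD2. TOMM6, a small subunit that stabilises the complex, had 8.24 ± 0.81 in DRD1A chronic and 7.57 ± 0.48 in DRD1A acute neurons (SD, n = 8 and 7), a difference of 0.67 (-0.01 to 1.35). TOMM7, which regulates the assembly of the complex, came to 0.10 in DRD1A and 0.58 in DRD2 for chronic minus acute, both with intervals that include 0.

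The SAM complex, SAMM50 with the metaxins MTX1 and MTX2, also had no gene past the test. SAMM50, the beta-barrel insertase, was lower after chronic LDOPA by value in both lines, at -0.25 (-0.68 to 0.18) in DRD1A and -0.41 (-1.04 to 0.23) in DRD2, but the DRD1A value was -0.04 without BeadChip 1. MTX1 varied widely among arrays of one group, from 7.95 to 10.34 on the DRD1A chronic arrays, against 8.39 to 10.43 on the DRD1A acute arrays. Its brightest probe gave DRD1A minus DRD2 of 0.49 after acute LDOPA where one of its dimmer probes gave -0.12. MTX2 was detected on no array.

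The small TIM chaperones held the import gene with the smallest adjusted p between the lines. TIMM8A1, the mouse form of the gene mutated in human deafness-dystonia syndrome, works with TIMM13 in the intermembrane space. Its log2 signal on the DRD1A chronic arrays was 9.02 at its lowest, 9.42 at the median and 9.81 at its highest, against 8.98, 8.35, 8.39 and 8.82 on the DRD2 chronic arrays. The groups did not overlap, as was so for 1.72% of all probes, and the difference was 0.75 (95% interval 0.30 to 1.21, adjusted p = 0.387). After acute LDOPA the DRD1A arrays ran from 8.51 to 9.84 with a median of 9.22, against 8.53, 8.85, 8.63 and 8.29 on the DRD2 arrays.

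One DRD1A acute array, 1B, lay within the range of the DRD2 acute arrays and the other 6 lay above it. The difference after acute LDOPA was 0.69 (0.27 to 1.11, adjusted p = 0.227). Within single BeadChips TIMM8A1 was higher in DRD1A than in DRD2 in each of the 5 comparisons that could be made, by 1.01 and 0.67 after chronic LDOPA and by 0.83, 0.98 and 0.93 after acute LDOPA. These set 3 DRD1A arrays against 1 DRD2 array after chronic LDOPA, and 1 against 1 or 2 after acute LDOPA. The arrays are those of the group comparisons, so the values are not a replication. Over the 4 groups its F test had an adjusted p of 0.0886. Chronic minus acute was 0.21 in DRD1A and 0.15 in DRD2, so the larger differences of this gene lay between the lines.

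**Figure D3:**
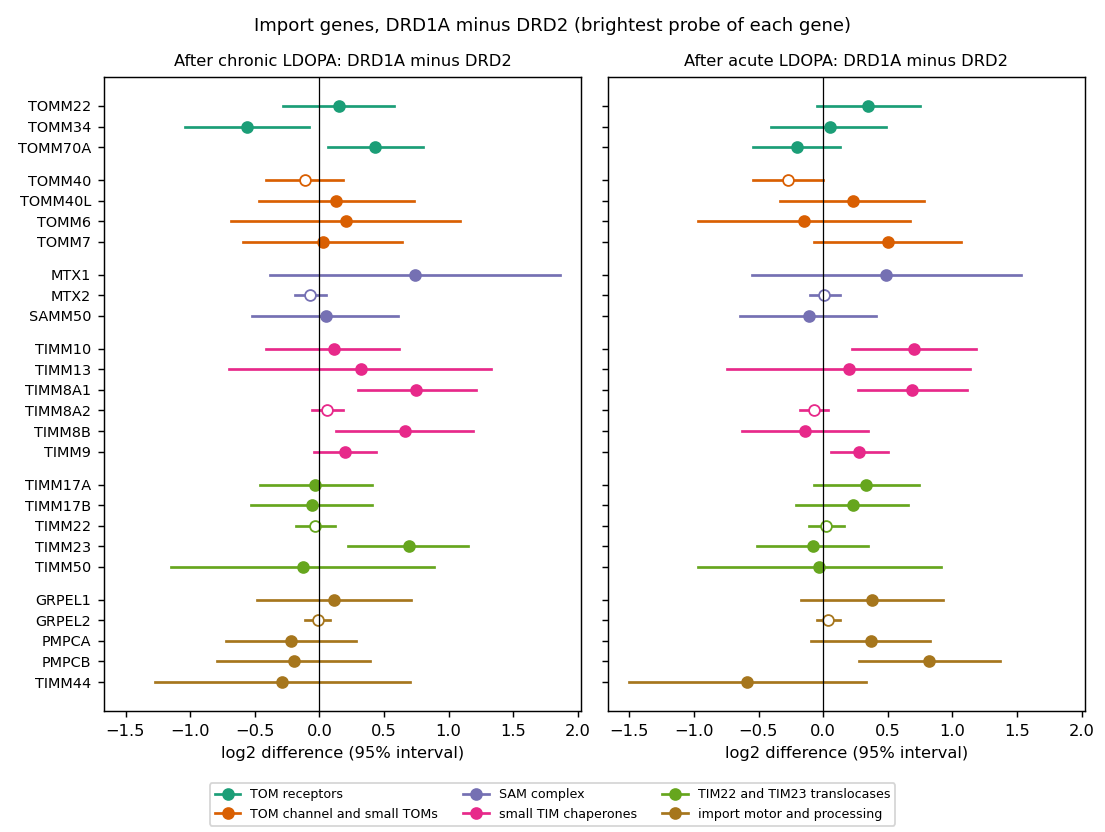
Log2 difference, DRD1A minus DRD2, with its 95% interval (horizontal axis), for the brightest probe of each of the 26 import genes after chronic LDOPA (left) and acute LDOPA (right), coloured by role; open circles mark genes detected on at most 8 of 23 arrays. TIMM8A1 lies at 0.75 after chronic and 0.69 after acute LDOPA, and no gene was called.

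TIMM10, which pairs with TIMM9 to carry precursors to the TIM22 complex, was at 8.66, 8.52, 8.73 and 8.42 on the DRD2 chronic arrays, against 8.39, 7.83, 7.82 and 7.46 on the DRD2 acute arrays. Every DRD2 chronic array lay above every DRD2 acute array, where 6.9% of all probes had no overlap. The difference was 0.69 (0.10 to 1.27, adjusted p = 0.734). After acute LDOPA, TIMM10 was higher in DRD1A than in DRD2 by 0.70 (0.22 to 1.18, adjusted p = 0.313), and after chronic LDOPA by 0.11. The DRD2 acute arrays were therefore the low ones for this gene. These arrays also detected fewer probes than the DRD2 chronic arrays, and the part of this in the differences was not tested.

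TIMM9 by its brightest probe had 12.31 ± 0.09 in DRD1A chronic and 12.29 ± 0.15 in DRD1A acute neurons (SD, n = 8 and 7), a difference of 0.02 that became 0.53 and was called under median centering (adjusted p = 0.0456). DRD1A minus DRD2 was 0.20 after chronic and 0.28 after acute LDOPA (adjusted p = 0.907 and 0.406). Without array 3A the value after chronic LDOPA was 0.13, and without array 4E, at 11.53 the low DRD2 acute array, the value after acute LDOPA was 0.12. Its 3 probes that passed the filter differed in sign: chronic minus acute in DRD2 ran from -0.42 to 0.10 over them, and DRD1A minus DRD2 after acute LDOPA from -0.24 to 0.28.

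TIMM8B, another small TIM, was higher in DRD1A chronic than in DRD1A acute neurons by 0.46 (0.05 to 0.86) and 0.42 by its 2 probes, neither called (adjusted p = 0.585 for the brighter). On the brighter probe the DRD1A chronic arrays ran from 9.63 to 11.00 with a median of 10.73, against 9.85 to 10.63 with a median of 10.12 on the DRD1A acute arrays. Array 3C was the low DRD1A chronic array on both probes. In DRD2 the probes gave -0.34 and 0.06, and DRD1A minus DRD2 after chronic LDOPA was 0.66 (adjusted p = 0.666). TIMM13 was detected on 12 of 23 arrays and TIMM8A2 by its brighter probe on 2, and neither had a difference past the test.

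**Figure D4:**
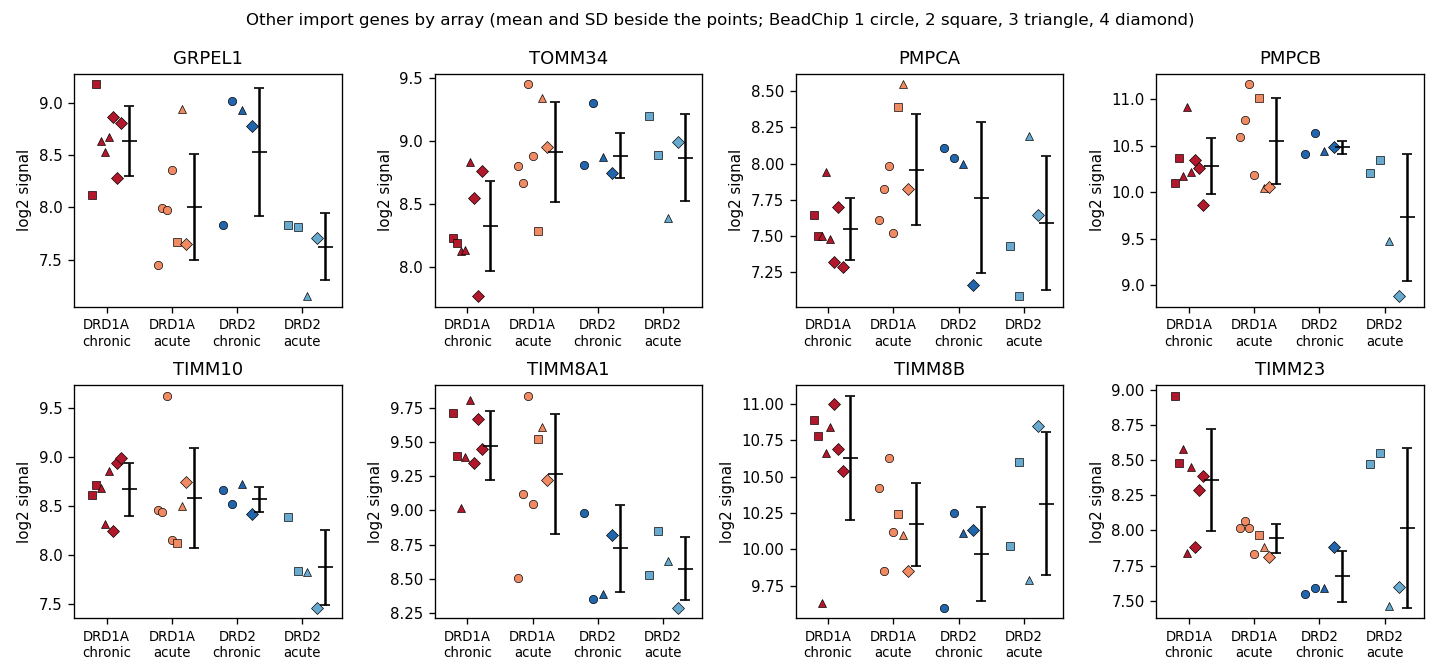
Log2 signal (vertical axes, each panel with its own range) on each array of the 4 groups for 8 import genes by their brightest probe, with the BeadChip as marker shape and each group's mean and SD beside its points. TIMM8A1 is higher in the DRD1A groups, TIMM10 and PMPCB are lowest in DRD2 acute, and TIMM23 on the DRD1A acute arrays stays within 7.81 to 8.07.

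Among the translocases of the inner membrane, TIMM23, the channel of the presequence pathway, was lowest at 7.84, had a median of 8.42 and was highest at 8.96 on the DRD1A chronic arrays, against 7.81, 7.97 and 8.07 on the DRD1A acute arrays. Of the 8 DRD1A chronic arrays, 6 lay above every acute array, and the difference was 0.42 (0.06 to 0.77, adjusted p = 0.554). In DRD2 it was -0.35 (-0.87 to 0.17), and the interaction was 0.77 (0.14 to 1.40, adjusted p = 0.883). DRD1A minus DRD2 after chronic LDOPA was 0.69 (0.22 to 1.15, adjusted p = 0.503). TIMM17A, its partner in the channel, did not show this pattern by value, with chronic minus acute at 0.02 in DRD1A and 0.38 in DRD2. TIMM17B and TIMM50, the receptor of the TIM23 complex, came to -0.10 and -0.43 in DRD1A. TIMM22, the carrier insertase, was detected on 3 of 23 arrays.

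Of the motor and the processing peptidase, GRPEL1, the nucleotide exchange factor of mitochondrial HSP70, was higher after chronic LDOPA in both lines by value. The DRD1A chronic arrays ran from 8.12 to 9.18 with a median of 8.65, against 7.45 to 8.94 with a median of 7.98 on the DRD1A acute arrays. The DRD2 chronic arrays were at 7.83, 9.02, 8.93 and 8.78, against 7.83, 7.81, 7.15 and 7.71 on the DRD2 acute arrays. The differences were 0.63 (0.18 to 1.08, adjusted p = 0.433) in DRD1A and 0.90 (0.23 to 1.57, adjusted p = 0.698) in DRD2. Under median centering the DRD1A difference was 0.84 and was called (adjusted p = 0.0498). In DRD1A the difference within BeadChips 2, 3 and 4 was 0.97, -0.33 and 1.00, so BeadChip 3, with its acute array at 8.94, ran the other way. A second GRPEL1 probe near background, detected on 3 of 23 arrays, gave -0.11 in DRD1A.

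PMPCB, the catalytic subunit of the processing peptidase, was at 10.41, 10.64, 10.44 and 10.49 on the DRD2 chronic arrays, against 10.21, 10.35, 9.47 and 8.88 on the DRD2 acute arrays. The groups did not overlap, as was so for 6.9% of all probes, and the DRD2 acute arrays 3F and 4E were the low ones. Chronic minus acute was 0.76 (0.09 to 1.42, adjusted p = 0.738) in DRD2 and -0.27 (-0.72 to 0.18) in DRD1A. Without array 4E the DRD2 difference was 0.47, and the DRD1A difference turned to 0.18 under median centering. The interaction of -1.02 (-1.82 to -0.22) was not called (adjusted p = 0.880). PMPCA, its partner subunit, gave -0.41 (adjusted p = 0.610) in DRD1A by the brighter probe and 0.10 by the other. TIMM44, which tethers the motor to the channel, gave DRD1A minus DRD2 after acute LDOPA between -0.59 and 0.11 over its 3 probes. GRPEL2 was detected on 3 of 23 arrays.

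Chronic and acute DRD2 arrays did not overlap for 8 of 40 member probes, against 6.9% of all probes, with 3 samples against 4. Higher after chronic LDOPA were TOMM22, PMPCB, TIMM10 and the GRPEL1 probe near background. Lower were SAMM50, the dimmer TOMM34 probe, a TIMM44 probe and a TIMM8A2 probe that was detected on no array. In DRD1A, chronic against acute, the 1 member probe without overlap was TOMM70A, against 0.136% of all probes. Between the lines there were 2 after chronic LDOPA (TIMM8A1 and TIMM9), against 1.72%, and 0 after acute LDOPA, against 1.49%.

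Genes that work with the import machinery were read from lists of 19 partner genes, 6 carriers imported through TOMM70 and 3 outer membrane porins, by their brightest probe. In DRD1A, chronic against acute, 0 of 19, 0 of 6 and 0 of 3 were called, against 0.0341% of all probes. Their median differences were -0.04, 0.03 and -0.06. None was called in the other comparisons, against at most 0.158% of all probes. Of the partners, 9 were higher and 10 lower by value in DRD1A, chronic against acute, from -0.42 to 0.20. The cytosolic chaperones among them, named after their values were seen, gave -0.42 for HSP90AA1, -0.35 for HSPA8, -0.06 for HSP90AB1 and 0.17 for DNAJA1. The dimmer HSP90AB1 probes differed from the brightest one, at -1.03 and -0.90 (adjusted p = 0.0959 and 0.103). The largest difference in these lists was in GFER, the sulfhydryl oxidase that reoxidises CHCHD4 in the intermembrane space, at -1.68 for DRD1A minus DRD2 after chronic LDOPA (adjusted p = 0.210). Of the carriers, SLC25A3, the phosphate carrier, came to 0.88 and SLC25A12, an aspartate-glutamate carrier, to -0.76 for DRD1A minus DRD2 after acute LDOPA. Of the porins, VDAC3 came to 0.73 and VDAC1 to -0.32 for chronic minus acute in DRD2.

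Further probes of the machinery stood under older symbols and were named through the platform annotation: 9 probes of TIMM21, TIMM10B, TIMM29 and TOMM6. Of these genes, TIMM10B, listed as FXC1, was also among the partner genes, and TOMM6 was also a member by another probe. None was called. Their brightest probes gave chronic minus acute between -0.12 and 0.46 in DRD1A and between -0.48 and 0.23 in DRD2.

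Markers of other cells were read beside the TOMM70A result. In DRD1A, chronic against acute, 0 of 3 cholinergic, 0 of 4 astrocyte, 0 of 4 oligodendrocyte, 0 of 3 microglia and 0 of 1 endothelial markers were called. The share called over all probes was 0.0341%, so calls in such short lists say little. The summed signal of the oligodendrocyte markers ran from 1624 to 4673 with a median of 3032 on the DRD1A chronic arrays, against 1504 to 3562 with a median of 1851 on the DRD1A acute arrays. That of the astrocyte markers ran from 676.5 to 1534 with a median of 1190 on the DRD1A chronic arrays, against 676.4 to 1273 with a median of 1088 on the DRD1A acute arrays. The ranges overlapped for both lists, and both median sums were higher in DRD1A chronic, as TOMM70A was. By gene, 2 oligodendrocyte markers were higher and 2 lower, from -0.14 to 0.68. Of the astrocyte markers, 2 were higher and 2 lower, from -0.06 to 0.45, so neither higher sum was shared by most genes of its list. The microglia sum went the other way, with a median of 774 in DRD1A chronic against 837 in DRD1A acute. The cholinergic sum had medians of 419 and 413, and the endothelial signal of 137 and 136. The sum of the 5 direct pathway markers ran from 7123 to 10234 on the DRD1A chronic arrays, against 3509 to 6609 on the DRD1A acute arrays, with no overlap. Of the cholinergic markers, CHAT (brightest probe) was detected on 4, SLC18A3 on 1 and SLC5A7 on 6 of the 23 arrays. Of the direct pathway markers, PDYN, the precursor of dynorphin, rose by 1.41 in DRD1A and 2.45 in DRD2 (adjusted p = 0.0388 and 0.0308), and the other 4 were not called. By value, 2 of the 5 were higher and 3 lower in DRD1A, chronic minus acute, from -0.50 to 1.41 with a median of -0.01. The higher sum was therefore not shared by most of these genes. The part of cell composition in the TOMM70A result was not tested.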

How the data were processed

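The deposited intensity values were exported from GenomeStudio by the authors as mean bead intensities per probe, unlogged, with no normalization or background subtraction. The deposited report also holds detection p-values (signal against negative control beads), and bead numbers with their standard error. The deposited series table holds log2 values that the authors quantile normalized, and served as an alternative. RNA came from tagged ribosomes by TRAP and was amplified before labelling, which can widen the spread between arrays. The report also held 4 columns of an array of no listed sample, which were not used.

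Groups came from the sample labels. The group sizes in the study's text differ from these for DRD1A chronic and DRD2 acute LDOPA. The labels name no animals, so p-values measure the spread between arrays. Signals of 23 arrays were quantile normalized, raised to 1 where lower, and log2 transformed (limma 3.58.1, R 4.3.3). A probe was kept where it lay above the 20th percentile on all arrays of 1 group or more (32255 of 45281, 71.2%). Arrays 1D and 3A were averaged; the design named this pair by another BeadChip numbering. limma fitted a mean for each of 4 groups, with 5 contrasts and an F test, moderated with 19.4 degrees of freedom, Benjamini-Hochberg adjustment over all probes kept, and a call at an adjusted p under 0.05, two-sided. Quantile normalization assumes a like distribution of signals on all arrays. A probe counts as detected at a detection p under 0.05. The fit was tested on simulated data.

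Named were TOMM70A, every member called, per comparison the 5 genes with the smallest unadjusted p in each direction, up to 4 genes per role, members whose probes differ in sign by over 0.5, and of the partner lists the 2 largest changes. The member rule, the lists and the tests were chosen with earlier results of these data known. Alternatives were other scalings (median centering, normexp, the series table), other filters, separate arrays, the BeadChip as a fixed or random block or without BeadChip 1, each array left out, and the methods' analysis of variance with Tukey's HSD. TOMM20 and TOMM5 were not analysed here.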

Additional observations from a re-analysis of the deposited data

Results flagged for a closer look

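In 4 of 54 groups tested, over 18 named import genes by their brightest probe, a single array lay far from the rest of its group by Dixon's ratio. Chance flags about 1 in 20 such groups. TIMM10 was at 9.63 on the DRD1A acute array 1E, with the next array at 8.75. TIMM8B was at 9.63 on the DRD1A chronic array 3C, with the next at 10.54. TIMM9 was at 11.53 on the DRD2 acute array 4E, with the next at 12.12. TOMM40, near background, was at 7.64 on the DRD1A chronic array 4C, with the next at 7.27. The TOMM70A groups tested had no such array. DRD2 chronic LDOPA, with 3 samples after averaging, was not tested for any gene.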

How the results depend on the processing

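TOMM70A was higher in DRD1A chronic than DRD1A acute neurons under every alternative run (log2 difference 0.85 to 1.33, adjusted p 0.00274 to 0.0705). It was not called without BeadChip 1 (1.15), and with 1 array left out (0.85 to 0.97) it was not called without 3D or 3E. Its other comparisons kept their direction and were not called. The number of import probes called in DRD1A, chronic against acute, was 3 under median centering (TOMM70A, GRPEL1 at 0.84 and TIMM9 at 0.53), 0 without BeadChip 1 and 0 to 1 with an array left out. For the F test it was 4 under median centering, 2 (with TIMM8A1) with 23 separate arrays, with the BeadChip as a random block (correlation -0.0117) and without BeadChip 1, and 1 to 2 with an array left out. In the other comparisons it stayed 0 under the alternatives run. Median centering moved the members' median to 0.10 for chronic minus acute in DRD1A and in DRD2 and to 0.08 for the interaction, normexp to 0.10 for DRD1A minus DRD2 after acute LDOPA and -0.10 for the interaction, and the detection filter to 0.11 for DRD1A minus DRD2 after chronic LDOPA and 0.05 for the interaction. With an array left out the median ran from 0.02 to 0.10 for DRD1A minus DRD2 after acute LDOPA and from -0.06 to 0.05 for the interaction. PMPCB, not called, changed sign under median centering, to 0.18 for chronic minus acute in DRD1A and 0.03 for DRD1A minus DRD2 after chronic LDOPA, and TIMM8B, for DRD1A minus DRD2 after acute LDOPA, ran from -0.32 to 0.04 with an array left out, above 0 without the DRD2 acute array 4E. Differences of single genes that were not called often moved by over 1.5 times, for example TOMM7 for chronic minus acute in DRD2 (0.58), which was 0.98 without array 2C and 0.33 without 4E, and TOMM70A in that comparison (0.26), which was 0.41 without 2C and 0.15 without 3F. Over all probes, calls in DRD1A, chronic against acute, were 247 under median centering (97.6% higher) against 11 (63.6% higher), 22 with the detection filter, 5 with no filter and 0 without BeadChip 1. The causes were not tested. No paired analysis was possible because the array positions in the labels pair no samples across groups. Probes near background and groups of 4 arrays limit what differences can be seen.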
